A study of Caenorhabditis elegans with 24 samples.

Results

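Small RNA reads lying antisense to small nucleolar RNA (snoRNA) genes of Caenorhabditis elegans were followed across 24 libraries. The snoRNA features were those with the biotype snoRNA in the Ensembl release 115 annotation (WBcel235) and 10 normalized counts or more in 2 or more libraries. These were 53 of the 346 snoRNA features listed, and 53 of the 8869 features of every kind that met the same minimum. A further 293 snoRNA features were too weakly covered to be kept, and 85 of those had no read in any library. The libraries came from young adult whole animals in 12 groups of 2. They were the wild-type strain N2, the meg-3 meg-4 strain JH3225 (meg-3/4, the double mutants), the strain YY1512, mutant for hrde-1 as well (hrde-1; meg-3/4, the triple mutants) and 9 groups of genotypically wild-type descendants of outcrossed meg-3/4 animals. The descendants were sampled at every generation from F3 to F7 and at F10, F15, F20 and F25. All groups were raised at 20 °C on E. coli OP50, and the alleles are not given in the labels.

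snoRNAs are short nuclear RNAs that guide chemical changes on other RNAs, mostly ribosomal RNA. Box C/D snoRNAs direct ribose methylation by fibrillarin, and box H/ACA snoRNAs direct pseudouridylation by dyskerin. Many are processed out of introns of host genes and others have promoters of their own. In C. elegans, RNA-dependent RNA polymerases copy target RNAs into antisense siRNAs that Argonaute proteins carry. MEG-3 and MEG-4 are disordered proteins of the germ granules where parts of this machinery reside, and HRDE-1 is a germline nuclear Argonaute needed for siRNA inheritance. Reads antisense to a snoRNA gene are therefore not the snoRNA itself, and the level of the snoRNA was not measured by them.

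Recovered reads ran from 392785 to 3420345 per library, of which 674 to 8310 fell on the 53 snoRNA features. A single read was worth 0.51 to 1.86 normalized counts in 22 libraries, 4.99 in F4 replicate 2 and 5.47 in F10 replicate 1, so low values in those 2 are coarse. The antisense signal of meg-3 was 42.8 and 64.2 normalized counts in N2, 7.74 and 7.86 in the double mutants, and 4.73 and 14.4 in the triple mutants. That of meg-4 was 55.0 to 74.2, 3.93 to 12.2 and 0.901 to 4.73 in the same groups, and that of hrde-1 was 1351 to 1360, 1115 to 1164 and 599.9 to 628.5. The 3 targeted genes were thus lowest in the mutants labelled for them. The descendants lay at 46.5 to 84.8 for meg-3, 71.1 to 194.5 for meg-4 and 1300 to 1982 for hrde-1. For each gene their highest value was thus above both N2 libraries. Tissue markers could not be checked, because antisense reads do not report a gene's mRNA. In whole animals, fewer cells carrying a small RNA and less of it per cell cannot be told apart.

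The 53 snoRNA features held 0.231% of all normalized counts. Their mean level over the 24 libraries had a median of 25.7 normalized counts and ran from 3.92 for F48F5.7 to 1458 for T21F2.3. T21F2.3 (chromosome X, 16721943 to 16722113, minus strand, 171 bases, outside any other annotated gene) alone gave 33.3% of the summed signal, and the 10 strongest gave 76.7%. Per 100 bases, T21F2.3 had a mean level of 852 normalized counts, followed by WBGene00220185 at 418, WBGene00220222 at 223 and C17H12.36 at 165, while the median of the 53 was 20.5. 4 features with long numbers in their names, such as WBGene00220185, are given by their WormBase gene identifier. At the minimum itself, the second-highest value was 10.2 for Y43F8C.22, 10.8 for Y55F3BR.9 and 10.9 for F11A10.9 just inside, and 9.98 for T09B9.10, C06E7.95 and F25H2.15 just outside. Of the 53, 26 reached 10 in every library and 11 had no read in at least 1.

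The annotation placed the covered snoRNA features unevenly. On chromosome IV 15 of 59 annotated snoRNA genes were kept (25.4%), against 5 of 54 on chromosome III (9.26%) and 3 of 33 on the X (9.09%). Of the snoRNA genes inside an intron of a gene on the same strand, 9 of 121 were kept (7.44%), whereas 23 of the 108 that overlap no other gene were (21.3%). The kept features had a median length of 126 bases (62 to 325) and the others 130 bases (54 to 344). By length, 21.9% of those up to 90 bases were kept, 11% of those with 91 to 150 bases and 17.3% of those over 150 bases. RefSeq (matched by symbol for all 53) also calls 52 of them snoRNA genes and T19C4.11 a non-coding RNA gene. Whether members share sequence with each other or with other loci was not examined, so reads of near-identical copies are uncertain.

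In meg-3/4 mutants, 16 of the 53 snoRNA features were higher than in wild type and 1 was lower, where 8.28% of all features tested were higher and 17.6% lower. A feature is called higher or lower where limma, fitted on log2(normalized count + 5), gave a two-sided Benjamini-Hochberg adjusted p under 0.05 over all 8869 features. The median log2 change of the 53 was 0.43, against -0.01 for all features. Their summed level was 3861 ± 50.7 (SD, n = 2) normalized counts in N2 and 6165 ± 514 in the double mutants. The rise lay outside the strongest feature: without T21F2.3 the sums were 2506 ± 9.54 and 4899 ± 497. The groups are 2 libraries each, labelled biological replicates with nothing said of separate cultures. Each p of a group comparison uses a spread estimated from all 12 groups together, not only from the libraries compared. Such a p sets the change against the spread between these samples, which limma draws towards a trend on mean level over all features.

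ZK185.9 (chromosome IV, 4538702 to 4538916, minus strand, 215 bases) had the largest change. It read 47.5 and 36.8 normalized counts in N2 and 767 and 681.5 in the double mutants. Both mutant libraries stood far above both wild-type ones, with a log2 change of 3.96 ± 0.50 (SE) and an adjusted p of 4.744e-06 (limma).

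F43A11.8 (chromosome V, 11585191 to 11585361, minus strand) read 36.5 and 31.5 in N2 and 273 and 199 in the double mutants. Its log2 change was 2.62 ± 0.21 (limma adjusted p 1.428e-08). C14E2.12 (chromosome X, 1831628 to 1831762, minus strand), which overlaps no other gene, read 13.9 and 16.4 in N2 and 111 and 112 in the double mutants. The 2 mutant libraries of C14E2.12 were almost equal and several times the wild-type level, and its log2 change was 2.53 ± 0.32 (limma adjusted p 5.221e-06).

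T19C4.11 (chromosome V, 11175529 to 11175706, minus strand) read 115 and 99.3 in N2 and 381 and 366 in the double mutants. C17H12.36 (chromosome IV, 6792974 to 6793200, plus strand, 227 bases) read 259 and 228, then 897 and 695. Neither pair of groups overlapped, and the log2 changes were 1.76 ± 0.15 and 1.68 ± 0.20 (limma adjusted p 3.617e-08 and 2.118e-06). Y74C9A.6 (chromosome I, 3747 to 3909, minus strand) read 28.4 and 29.2 in N2 and 123 and 112 in the double mutants, a log2 change of 1.86 ± 0.29. F59C6.15 rose from a mean of 72.1 to 180.3 normalized counts. Smaller log2 rises were called at Y48A6C.10 (1.14), T26A8.6 (1.14), WBGene00220176 (0.90), T08B6.64 (0.89), Y67A10A.14 (0.89), Y73B6A.14 (0.82) and WBGene00220222 (0.43). Without wild-type replicate 1 the limma adjusted p of the last 2 was 0.0911 and 0.0858, and without meg-3/4 replicate 1 it was 0.0744 and 0.0761. Y73B6A.14 also lost its call without meg-3/4 replicate 2 (0.0537).

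C41C4.11 and C05D2.15 rose from low levels. C41C4.11 read 13.3 and 5.26 in N2 and 58.6 and 24.6 in the double mutants. In both groups replicate 1 was the higher library. Its log2 change of 1.66 lost its call without wild-type replicate 2 (limma adjusted p 0.135) or without meg-3/4 replicate 1 (0.164). C05D2.15 read 4.05 and 2.34 in N2 and 21.0 and 14.7 in the double mutants (log2 change 1.48). Only these 2 mutant libraries reached 10, so C05D2.15 met the minimum solely through the group where it was high. Its call, counted among the 16, is therefore no independent support for a rise. The same holds for its lower call in the triple mutants against meg-3/4.

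F33E11.7 was the 1 snoRNA feature called lower in meg-3/4, at 63.7 and 93.4 normalized counts in N2 and 36.5 and 44.2 in the mutants (log2 change -0.86 ± 0.27, limma adjusted p 0.0218). Without wild-type replicate 2 its adjusted p was 0.234, and without meg-3/4 replicate 1 it was 0.144. WBGene00220185, the second strongest feature, read 421 and 477 in N2 and 189 and 202 in the double mutants. The groups did not overlap, but its log2 change of -1.18 was not called (limma adjusted p 0.0569). T21F2.3 read 1313 and 1398 in N2 and 1278 and 1254 in the double mutants, a log2 change of -0.10 that was not called either.

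**Figure D1:**
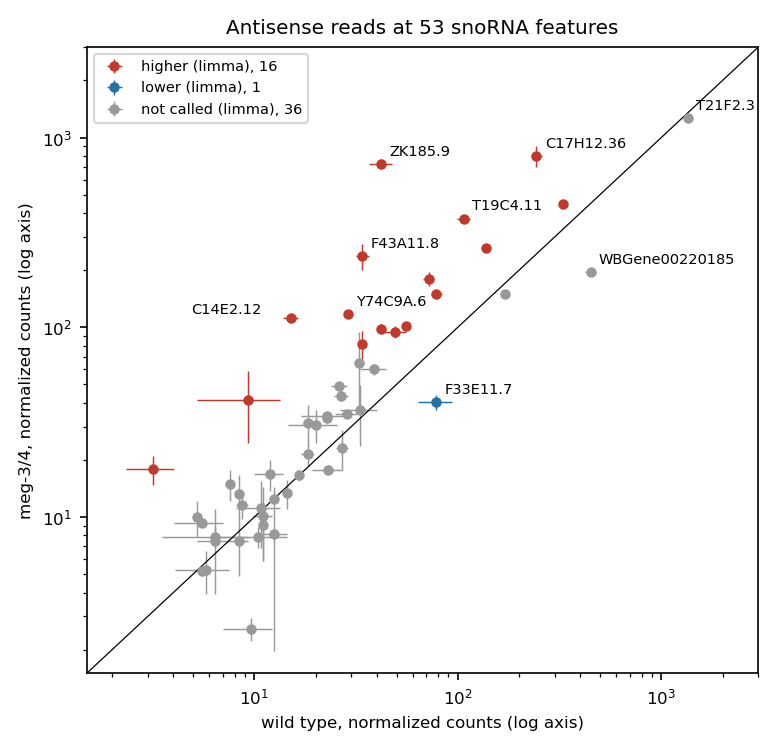
Mean normalized counts of the 53 snoRNA features in wild type (horizontal, log axis) and meg-3/4 (vertical, log axis). Points are means of 2 libraries, bars reach to the 2 library values, the line marks equality, and colours give the limma call. The 16 features called higher lie above the line, from C05D2.15 at 17.9 in meg-3/4 to C17H12.36 at 796.

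Among the gained features, long and well covered ones were frequent. Of the 19 snoRNA features over 150 bases, 10 were called higher in meg-3/4, against 5 of 18 with 91 to 150 bases and 1 of 16 with up to 90 bases. Of the 14 whose mean reached 50 normalized counts, 10 were higher, against 6 of the 39 below that. Of all features tested, 8.28% were higher, and that share was not taken by length or by coverage. Longer features collect more reads, and length and coverage were not separated, so these counts are a description only. By position, 10 of the 23 that overlap no other gene were higher, 2 of 6 in an intron of an opposite-strand gene, 2 of 9 in an intron of a same-strand gene, 2 of 10 opposite an exon and 0 of 5 overlapping a same-strand exon. For those 5, limma gave 0 at an unadjusted p under 0.05, and their reads may be shared with the other gene. C05D2.15, which met the minimum only through meg-3/4, is counted in the 5 of 18, the 6 of 39 and the 2 of 9.

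Library scaling changed which weak or strong features were called, but no called change in meg-3/4 turned its direction. The deposited scaling left the median of all features at -0.01. Setting all library totals equal moved that median to -0.33 and gave 13 snoRNA features higher and 4 lower. The 3 added on the lower side were WBGene00220185 (log2 change -1.53), WBGene00220205 (-0.52) and T21F2.3 (-0.46). The calls of Y73B6A.14, WBGene00220222 and WBGene00220176 were lost, with limma adjusted p of 0.121, 0.744 and 0.0542. Quantile normalization moved the median of all features to 0.13 and gave 18 higher and 2 lower. Its 2 lower calls were WBGene00220185 (-1.16) and T21F2.3 (-0.42), while F33E11.7 lost its call (limma adjusted p 0.0883). Scaling on the upper quartile of protein-coding genes moved it to 0.10 and gave 17 higher and 1 lower. The summed meg-3/4 to wild-type ratio was 1.60 as deposited and 1.24 with equal totals. The 10 features with the largest rises, from ZK185.9 to Y48A6C.10, were called higher under all 3 of these scalings. They include C05D2.15, which met the minimum only through meg-3/4, so its calls here are no independent support either. C41C4.11, also among them, lost its call when single libraries were left out.

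**Figure D2:**
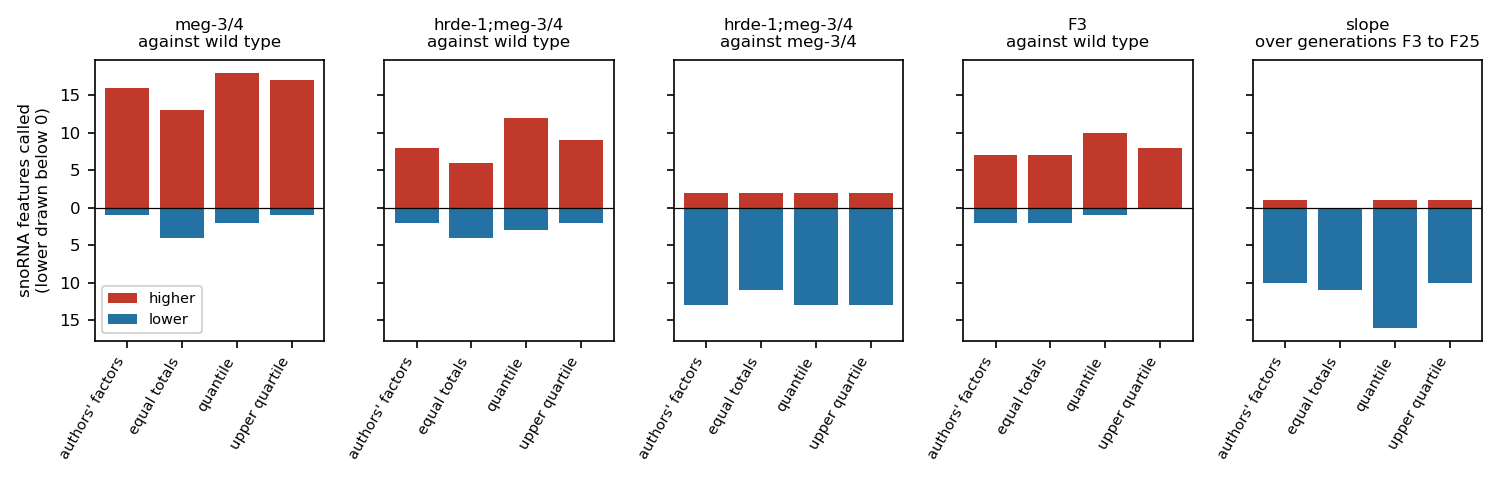
Number of the 53 snoRNA features called higher (above 0) or lower (below 0) by limma in 5 comparisons under 4 library scalings. In meg-3/4 against wild type the bars run from 13 higher and 4 lower with equal library totals to 18 higher and 2 lower with quantile normalization.

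In hrde-1; meg-3/4 animals 8 of 53 were called higher than wild type and 2 lower, where 5.83% of all features tested were higher and 12.4% lower. The summed level was 3512 ± 61.6 (SD, n = 2) normalized counts, and the median log2 change of the 53 was 0.11. Equal library totals gave 6 higher and 4 lower. Leaving out wild-type replicate 2 or triple-mutant replicate 1 left 6 called features in place of 10, and leaving out the 2 shallowest descendant libraries from the fit gave 16.

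T26A8.6 rose furthest in the triple mutants, with 34.2 and 33.3 normalized counts in N2, 95.1 and 67.8 in the double mutants and 156 and 133 in the triple mutants. The 3 groups did not overlap, and the log2 change against wild type was 1.95 ± 0.21 (limma adjusted p 4.919e-07). C17H12.36 read 665 and 642 (log2 change 1.41), Y74C9A.6 81.0 and 86.7 (1.40) and T08B6.64 126 and 99.3 (1.12). The rises of ZK185.9 (1.64), C41C4.11 (1.45), Y73B6A.14 (0.70) and F43A11.8 (0.68) were called, but each lost its call without at least 1 of the 4 libraries compared.

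T21F2.3, the strongest snoRNA feature, fell in the triple mutants. It read 434.9 and 502 normalized counts there, against 1313 and 1398 in N2 and 1278 and 1254 in the double mutants. The triple-mutant libraries stood alone, with a log2 change of -1.53 ± 0.10 against wild type (limma adjusted p 6.768e-10) that kept its call under every alternative run. WBGene00220205 read 164 and 176 in N2, 155 and 145 in the double mutants and 91.9 and 76.5 in the triple mutants (log2 change -0.98 against wild type). WBGene00220205 overlaps the piRNA gene 21ur-1009 on its own strand, and reads counted at the 2 could be divided or dropped.

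Set directly against meg-3/4, the triple mutants had 13 snoRNA features lower and 2 higher, where 8.63% of all features tested were lower and 10.6% higher. C14E2.12 fell from a mean of 111 ± 0.936 to 13.4 ± 0.0745 normalized counts (SD, n = 2), which is near its wild-type mean of 15.1 ± 1.74. ZK185.9 fell from 724 ± 60.2 to 141 ± 11.8, F43A11.8 from 236 ± 52.3 to 58.3 ± 15.6 and T19C4.11 from 373 ± 10.1 to 141 ± 10.9. The limma log2 changes were -2.66, -2.32, -1.94 and -1.38. K02F6.11 and W07G1.23, which were not called in meg-3/4 against wild type, fell by 1.30 each on the log2 scale, calls that each depended on at least 1 library (without triple-mutant replicate 2 the adjusted p of K02F6.11 was 0.074, and without meg-3/4 replicate 1 that of W07G1.23 was 0.0894). F33E11.7 (1.06) and T26A8.6 (0.80) were higher in the triple mutants. Both of these calls were lost without triple-mutant replicate 1 (limma adjusted p 0.0545 and 0.0979), F33E11.7 also without meg-3/4 replicate 1 (0.076) and T26A8.6 without meg-3/4 replicate 2 (0.142).

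The 16 gained features were chosen on the wild-type and meg-3/4 libraries that the triple mutants are also compared with, so their values are only set side by side. Their summed level was 1281 ± 51.7 (SD, n = 2) in N2, 3832 ± 372 in the double mutants and 2140 ± 88.6 in the triple mutants. C17H12.36 (796 ± 143 and 654 ± 16.8) and Y74C9A.6 (117 ± 7.67 and 83.9 ± 4.01) were not called between the 2 mutants.

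**Figure D3:**
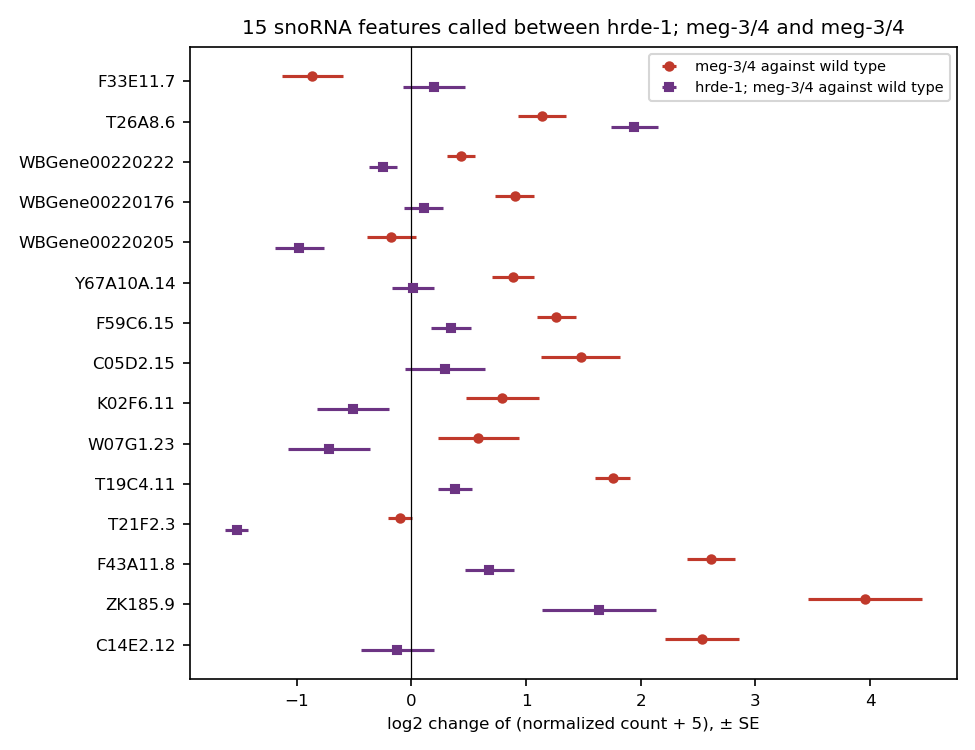
log2 change of (normalized count + 5) from wild type, with its standard error, in meg-3/4 (circles) and hrde-1; meg-3/4 (squares) for the 15 snoRNA features called between the 2 mutants. C14E2.12 goes from 2.53 in meg-3/4 to -0.12 in the triple mutants, T21F2.3 from -0.10 to -1.53, and T26A8.6 from 1.14 to 1.95.

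In the F3 wild-type descendants of meg-3/4 animals, 7 of the 53 snoRNA features were called higher than wild type and 2 lower, where 4.1% of all features tested were higher and 13.5% lower. T19C4.11 read 269.7 and 265 normalized counts at F3 (log2 change 1.28 ± 0.15 against wild type, limma adjusted p 5.991e-06). F43A11.8 read 116 and 139.8 (1.77), C17H12.36 560.4 and 512 (1.13) and F59C6.15 136 and 152 (0.95). These 4 lay above both wild-type libraries and below both meg-3/4 libraries, and kept their calls under every alternative run.

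ZK185.9 read 212 and 90.01 at F3, C14E2.12 37.7 and 33.2, and Y67A10A.14 131 and 129. Their log2 changes of 1.62, 1.01 and 0.69 were called, but not without wild-type replicate 2 (limma adjusted p 0.177, 0.105 and 0.117). On the lower side WBGene00220185 read 153 and 199.8 at F3 (-1.33) and F33E11.7 54.4 and 30.8 (-0.83). Neither held its call without wild-type replicate 2 (0.196 and 0.333). With protein-coding upper quartile scaling 8 were higher and 0 lower, and with quantile normalization 10 and 1. Leaving out wild-type replicate 2 left 4 of the 9 calls, and leaving out either F3 library left 5.

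By F25 no snoRNA feature was called higher than wild type and 1 was called lower, where 0.631% of all features tested were higher and 0.417% lower. Of the 53, 6 had an unadjusted p under 0.05 in limma, and edgeR and DESeq2 also called 0 higher and 1 lower. The 1 was C17H12.36, at 108 and 137 normalized counts against 259 and 228 in wild type (log2 change -0.97 ± 0.20, limma adjusted p 0.0153). F25 thus lay below wild type for a feature that was above it at F3. Leaving out wild-type replicate 1, wild-type replicate 2 or F25 replicate 1 ended that call, with limma adjusted p of 0.221, 0.0655 and 0.175.

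Averaged over the 9 descendant groups, 4 of 53 were called higher than wild type and 0 lower, where 6.28% of all features tested were higher and 15.2% lower. They were C41C4.11 (log2 change 1.27), F43A11.8 (0.53), T19C4.11 (0.39) and T21F2.3 (0.23). For each of them the descendant values overlapped the wild-type values. Of the 53, 8 had an unadjusted p under 0.05, and edgeR called 5 higher and 2 lower while DESeq2 called 4 and 0. Equal library totals gave 1 higher and 2 lower (WBGene00220205 and F48F5.7). Leaving out wild-type replicate 1 left 1 call, leaving out wild-type replicate 2 left 0, and leaving out replicate 1 or replicate 2 of every descendant group gave 9 or 8.

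Over the generations from F3 to F25, 10 of 53 snoRNA features fell and 1 rose, where 7.51% of all features tested fell and 13.8% rose. The trend is the limma slope of the log2 value against generation, over 18 descendant libraries taken as independent although successive generations may come from 1 line. T19C4.11 had group means of 268 at F3, 214 at F4, 169 at F5, 162 at F6, 124 at F7, 114 at F10, 106 at F15, 104 at F20 and 94.7 at F25. The level thus came down in every step, most of it before F10, and ended near the wild-type mean of 107. Its slope was -0.05 per generation (adjusted p 0.0001355), a fitted change of -1.19 on the log2 scale over 22 generations.

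F43A11.8 came down from 128 at F3 to 42.5 at F7 and 23.8 at F25, with a slope of -0.09 per generation (limma adjusted p 2.669e-05). C17H12.36 came down from 536 at F3 to 336 at F7, 239.5 at F15 and 123 at F25, with the same rounded slope and an adjusted p of 9.788e-09. C17H12.36 therefore passed the wild-type mean of 243.5 near F15 and went on falling. These 3 slopes kept their call under every alternative run, including with only replicate 1 or only replicate 2 of each descendant group.

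ZK185.9 came down from 151 ± 85.9 (SD, n = 2) at F3 to 44.4 at F7 and 34.2 at F25, and at F3 and F4 its replicates differed widely (212 and 90.01, then 176 and 49.9). Slopes were also called for Y48A6C.10, Y67A10A.14, F59C6.15, WBGene00220176, Y74C9A.6 and K10D3.10. Each of these 7 lost its call when replicate 1 or replicate 2 of every descendant group was left out, which left 5 or 4 called slopes in place of 11. WBGene00220185 rose, from 176 ± 33.2 at F3 to 532 ± 258 at F25 (slope 0.05, limma adjusted p 0.0431). Its replicates lay apart in the later generations, as they also did at F4: replicate 2 read 613, 782, 765 and 714 at F10, F15, F20 and F25, and replicate 1 read 164, 462, 518 and 349. Without replicate 2 of the descendants its adjusted p was 0.632, and with equal library totals 0.0696.

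F25 set directly against F3, a comparison chosen after seeing the data, had 10 of the 53 lower and 1 higher, where 3.21% of all features tested were lower and 9.16% higher.

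The slope is taken from the descendant libraries and the meg-3/4 log2 change from the N2 and meg-3/4 libraries. The meg-3/4 calls are still not independent of the descendants. Their spread was estimated from all 12 groups, and the minimum was taken over all libraries. Leaving out the 2 shallowest descendant libraries gave 21 called features in meg-3/4 in place of 17. Of the 16 features gained in meg-3/4, 9 fell over the generations and 15 had a slope below 0. Of the other 37, 1 fell (K10D3.10) and 23 had a slope below 0. Over all features tested, 33.2% of the 734 gained in meg-3/4 fell, against 5.19% of the rest. The summed level of the 16 was 2205 ± 106 (SD, n = 2) at F3, 1512 ± 50.7 at F7, 1374 ± 119 at F10 and 1081 ± 3.39 at F25, beside 1281 ± 51.7 in wild type. The wild-type sum comes from libraries that took part in choosing the 16 and is given as a description. T26A8.6, the most raised feature of the triple mutants, was already at 47.6 and 47.4 at F3 and was not called there.

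**Figure D4:**
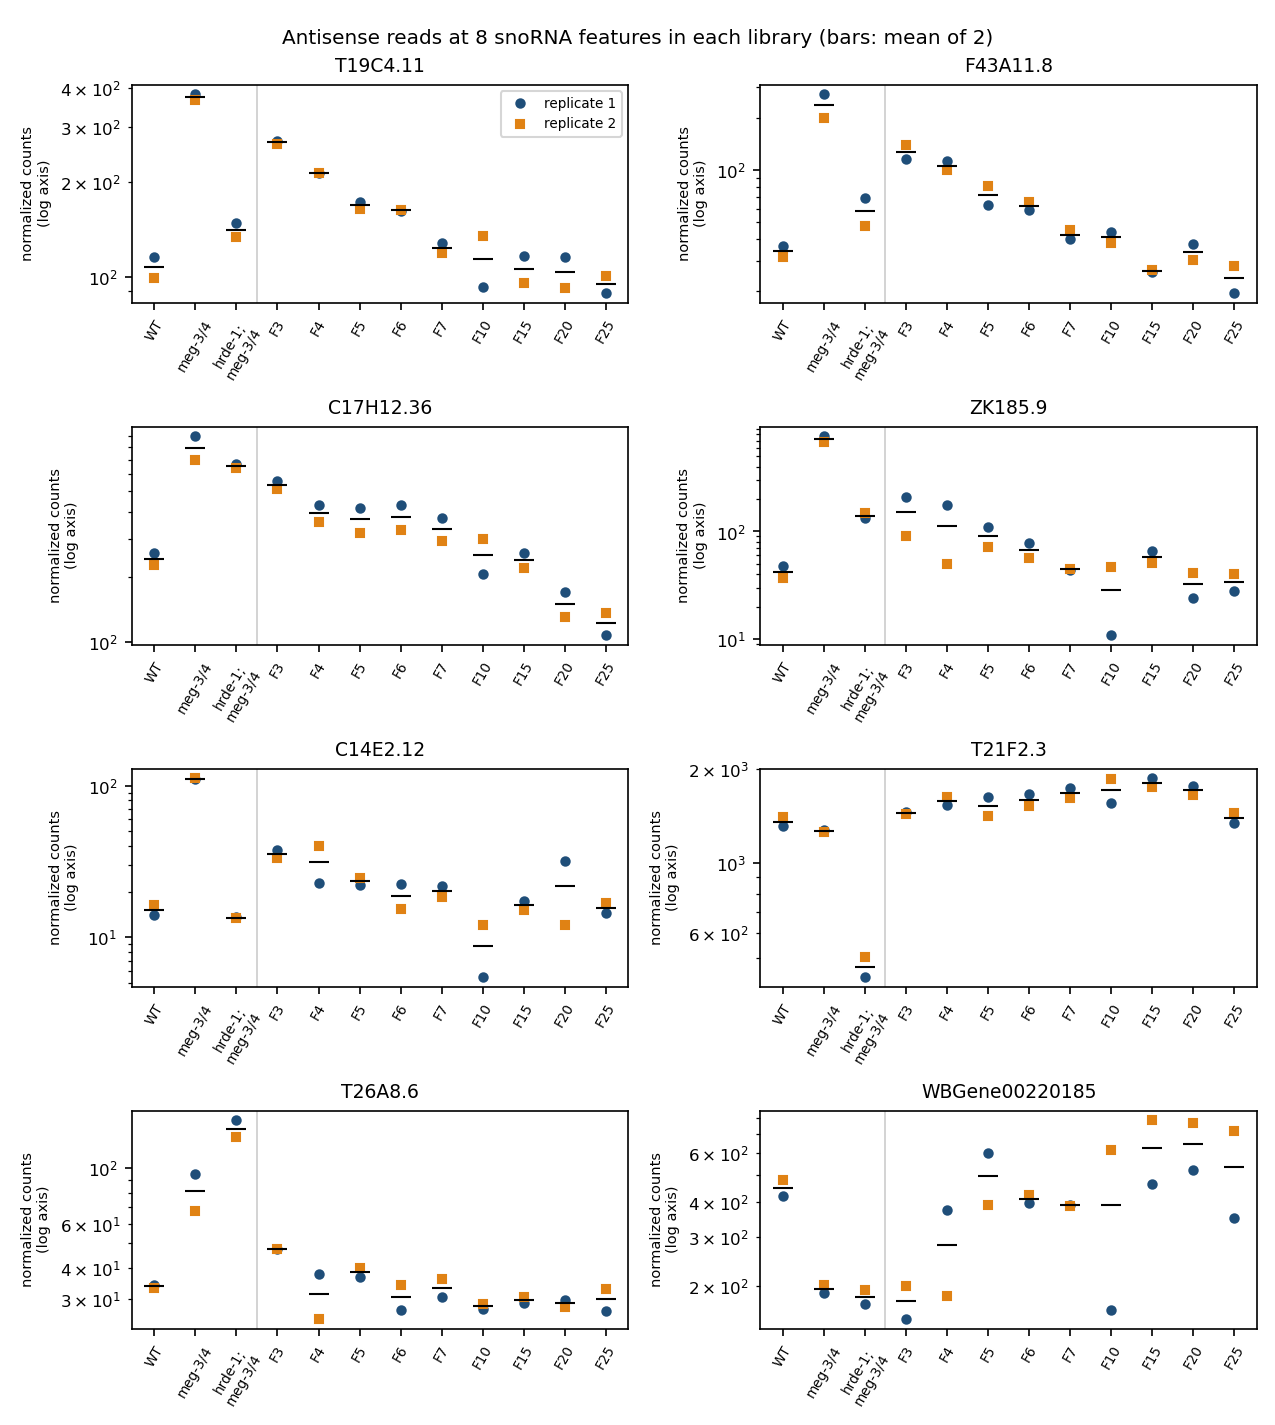
Normalized counts (log axis) of 8 snoRNA features in each library: circles are replicate 1, squares replicate 2 and bars the mean of 2. T19C4.11, F43A11.8 and C17H12.36 are highest in meg-3/4 and come down from F3 to F25, T21F2.3 is low only in the 2 hrde-1; meg-3/4 libraries (434.9 and 502), and the replicates of WBGene00220185 lie farthest apart at F10 (164 and 613).

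For 10 of the 53 snoRNA genes a non-coding RNA feature is annotated on the opposite strand. Because the deposited counts lie antisense to each feature, that opposite feature holds reads with the same strand as the snoRNA. In 6 of the 10 the reads on the snoRNA's own strand were the more abundant. At Y39G10AR.24 the means over 24 libraries were 5.83 normalized counts antisense and 193.5 on the same strand, and at C41C4.11 they were 30.8 and 560.0. At T19C4.11 the order was the other way, with 165 antisense and 0.115 on the same strand.

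In meg-3/4, 5 of the 8 opposite features that met the minimum were higher than in wild type and 0 were lower. Of all features tested, 8.28% were higher and 17.6% lower. The opposite features have the biotype ncRNA, and all kept ncRNA features summed to 328722 and 306449 normalized counts in N2. In the double mutants that sum was 796019 and 527326. Whether the rise is particular to snoRNA genes was not tested. This comparison of the same-strand reads was chosen after seeing the data. All 8 had a log2 change above 0, from 0.64 to 2.57. At Y53F4B.48 the same-strand reads went from 61.9 ± 1.62 to 393 ± 33.8 (SD, n = 2, log2 change 2.57, limma adjusted p 5.169e-06), while its antisense reads had a log2 change of 0.00. The others called were opposite C41C4.11 (1.89), H09I01.2 (1.62), F55A11.10 (1.33) and K11C4.6 (1.14). In meg-3/4 their replicate 1 was the higher library: 2011 and 841, 135 and 59.9, 38.7 and 12.8, and 156 and 94.3, in that order. Of the antisense reads at the 5 snoRNA genes with a called opposite feature, only those at C41C4.11 were called. Equal library totals left 4 of the 5. None of the 8 had a called slope over the generations or was called at F3 or F25, by limma, edgeR or DESeq2.

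**Figure D5:**
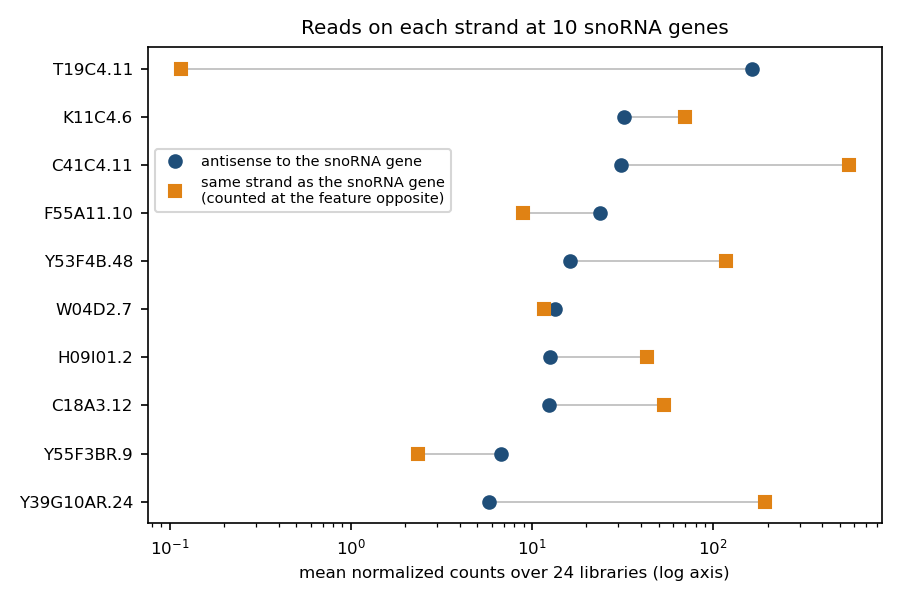
Mean normalized counts over 24 libraries (log axis) of reads antisense to 10 snoRNA genes (circles) and of reads on the same strand as the snoRNA gene (squares). T19C4.11 has 165 antisense and 0.115 on the same strand, and Y39G10AR.24 has 5.83 and 193.5.

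Some snoRNA features lie inside protein-coding genes whose own antisense reads changed. ZK185.9 lies in an intron of ZK185.2 on the opposite strand, so reads antisense to ZK185.9 have the strand of the ZK185.2 transcript. The reads antisense to ZK185.2 went from 242 ± 15.9 (SD, n = 2) in N2 to 4.67 ± 0.343 in the double mutants and 7.94 ± 1.04 in the triple mutants (limma log2 changes -4.68 and -4.26), and rose again over the generations to 172 ± 10.6 at F25. ZK185.9 moved the opposite way in meg-3/4 and over the generations. T19C4.11 lies in an intron of gpa-1, a G protein alpha subunit gene, on the same strand. Reads antisense to gpa-1 fell from 29.4 ± 9.64 to 3.07 ± 1.21 in meg-3/4 (log2 change -2.07) and rose over the generations, again opposite to the snoRNA feature.

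At other host genes the calls did not go together with those of the snoRNA feature. C05H8.3 lies in an intron of ckk-1, which encodes a CaM kinase kinase, on the opposite strand. Reads antisense to ckk-1 fell from 643 ± 41.0 to 11.5 ± 0.966 (SD, n = 2) in meg-3/4 (limma log2 change -5.30), and C05H8.3 was not called. Y48A6C.10 lies in an intron of sup-35 on the opposite strand, and sup-35 was at 20.4 ± 5.06 in wild type and 18.7 ± 0.105 in meg-3/4, not called, while Y48A6C.10 rose. F33E11.7 lies in an intron of nhr-15, a nuclear receptor gene, on the same strand. nhr-15 went from 1779 ± 87.9 to 631 ± 31.8 in meg-3/4, which was not called (limma adjusted p 0.0672). F33E11.7 also fell and was called, though it lost that call under 4 of 15 alternatives. The direction was thus the same here and only the calls differed.

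Other structural RNA genes were followed beside the snoRNA features. In meg-3/4, where 8.28% of all features tested were higher and 17.6% lower, all 4 ribosomal RNA features rose (median log2 change 1.47). Their summed level was 3294 ± 225 (SD, n = 2) normalized counts in N2, 8271 ± 277 in the double mutants, 5389 ± 25.5 in the triple mutants, 5250 ± 513 at F3 and 1477 ± 282 at F25. Like the summed level of the 16 gained snoRNA features, this sum was highest in meg-3/4 and lowest at F25 among these groups. Single features of the 16 differed in their group means. T26A8.6 and T08B6.64 were highest in the triple mutants. C41C4.11, C05D2.15 and F59C6.15 were lowest in N2, F59C6.15 only narrowly (72.1 in N2 and 72.4 at F25). C14E2.12 and WBGene00220222 were lowest in the triple mutants. All 4 ribosomal RNA features fell over the generations, where 7.51% of all features tested fell. The part of the ribosomal RNA features in the snoRNA result was not tested. With equal library totals 3 of the 4 were called in meg-3/4. Of the 48 small nuclear RNA features, limma called 0 in meg-3/4 against wild type with 5 at an unadjusted p under 0.05, edgeR called 2 higher and DESeq2 0. Quantile normalization gave 5 of them higher and 0 lower, and equal library totals 0 higher and 3 lower. Their median log2 change was -0.05. Of 11 transfer RNA features 0 were called higher and 1 lower.

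Antisense reads at genes of the proteins that act with snoRNAs gave few calls. Of 12 listed snoRNP proteins and assembly factors, among them fib-1 (fibrillarin) and nol-56 and nol-58 (box C/D core proteins), 9 met the minimum. limma called 0 of 9 in every comparison, with at most 2 at an unadjusted p under 0.05 in any of them. edgeR called 1 higher in the mean of the descendants and 0 in the other comparisons, and DESeq2 called 1 lower in the triple mutants against wild type and 1 falling over the generations. Equal library totals, which moved the median of all features to -0.33, gave 2 lower in meg-3/4, and quantile normalization gave 2 higher in the triple mutants. Of 12 RNA exosome genes, whose products trim and degrade nuclear RNAs, limma called 0 in the comparisons with wild type, with 1 at an unadjusted p under 0.05 in meg-3/4, where edgeR and DESeq2 called 0 too. For the mean of the descendants edgeR called 2 exosome genes lower and DESeq2 1, and equal library totals gave 5 lower in meg-3/4. exos-9 fell slightly over the generations (slope -0.01 per generation, limma adjusted p 0.0345).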

How the data were processed

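Small RNAs of 24 libraries were gel-purified and treated so that RNAs with a 5′ triphosphate could be cloned, per the labels' protocols. The authors deposited 1 table of signal values made with cutadapt, Bowtie, featureCounts and DESeq2, per the submitters' processing notes. Tool versions, genome build, annotation and strandedness: not given in the sources used here. Every deposited signal value above 0 (386038) was a whole read count divided by 1 factor per library (tolerance 0.01), so values are called normalized counts, and reads were recovered. At 28 places a microRNA gene overlaps a non-coding feature of the other strand, and the signal stood on that other feature in 26, so values are reads antisense to the named feature. Ensembl release 115 matched 46364 of 46726 identifiers.

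Features at 10 normalized counts or more in 2 or more libraries entered 1 limma fit (version 3.58.1, R 4.3.3, trend on mean level) of log2(normalized count + 5) with 12 groups, a procedure tested on simulated data. The added 5 understates log2 changes of low features. edgeR 4.0.16 and DESeq2 1.42.0 were run on the recovered reads. Other scalings, added counts, filters, a replicate block and leaving out libraries were tried. Named features are the 10 strongest, up to 10 called per direction and comparison, and called list genes, with others named for their position or for a count of 5 or fewer after values were seen. The members and lists were chosen with earlier results of these data known. No sequence is shown, since no sequence table was used. The snoRNA box motifs were not searched.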

Additional observations from a re-analysis of the deposited data

Results flagged for a closer look

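The change from wild type differed between F3 and F25 for 11 snoRNA features, tested as F25 against F3 in limma, where both changes share the wild-type libraries. 10 were lower at F25 (3.21% of all features tested were) and 1 was higher (9.16%). The log2 differences of F25 from F3 were -2.22 for F43A11.8, -2.09 for C17H12.36, -1.89 for ZK185.9, -1.45 for T19C4.11, -1.26 for Y48A6C.10, -1.24 for Y74C9A.6, -0.95 for F59C6.15, -0.93 for C05H8.3, -0.76 for Y67A10A.14, -0.67 for WBGene00220176 and 1.49 for WBGene00220185. F43A11.8, C17H12.36, T19C4.11 and F59C6.15 kept the call under every alternative run. Leaving out F3 replicate 1, F3 replicate 2 or F25 replicate 2 left 7, 5 or 7 of the 11 calls, and quantile normalization gave 17. This comparison was chosen after seeing the data.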

How the results depend on the processing

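Of 67 calls of single snoRNA features, 32 held under every alternative run, 35 were lost under at least 1 and 0 changed direction. The summed meg-3/4 to wild-type ratio of 1.60 became 1.24 with equal library totals and 1.75 with upper quartile scaling. The triple-mutant ratio of 0.91 became 0.847, 0.950 and 0.986 with equal totals, quantile and upper quartile scaling, and 0.884 without members opposite an exon. In meg-3/4 a minimum mean of 50 left 11 of 17 calls. Without the filter on low values, 6 were called in the triple mutants against wild type (10 with it), 5 at F3 (9), 2 in the mean of the descendants (4) and 5 slopes (11). Without the 2 shallowest descendant libraries, the triple mutants had 16 and the mean of the descendants 7. For that mean, edgeR gave 7 and leaving out members opposite an exon 2. Quantile scaling gave 17 slopes.

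Leaving out single libraries gave 14 to 16 calls in meg-3/4 against wild type, 6 to 8 in the triple mutants against wild type, 11 to 14 between the mutants, 4 to 6 at F3, 0 to 1 at F25 and, leaving out either wild-type library, 0 to 1 in the mean of the descendants. Leaving out replicate 1 or replicate 2 of all 9 descendant groups at once gave 9 and 8 in that mean and 5 and 4 slopes. The fit with replicate number as a block gave 2 calls at F25, adding C41C4.11, and 18, 11, 15, 9, 5 and 11 calls in the meg-3/4, triple-mutant, between-mutant, F3, mean and slope comparisons. For each group the log2 difference of replicate 1 from replicate 2 was taken at every kept feature, and these differences were correlated between groups. The correlation was above 0.1 in 30 of 66 pairs of groups (median 0.0813). Among descendant groups it was above 0.1 in 22 of the 36 pairs (median 0.137, lowest -0.0495, highest 0.469). Not every pair was over 0.1, so the numbers were not taken as pairing, although many descendant libraries with the same number deviated together. Depth limits F4 replicate 2 and F10 replicate 1, where 3 reads reach up to 16.4 normalized counts (95% limit, counting error only). The causes of these shifts were not tested.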
